A study of Rattus norvegicus with 12 samples.

Results

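The 9 genes described here make and handle superoxide, hydrogen peroxide and nitric oxide in the heart: the NADPH oxidase Nox4, its partners Cyba and Poldip2, the nitric oxide synthases Nos1, Nos2 and Nos3, the soluble guanylate cyclase subunits Gucy1a1 and Gucy1b1, and the extracellular superoxide dismutase Sod3. They were taken by symbol from the count tables of rat heart RNA, as 9 of 34322 genes, and all 9 were found. The set was chosen by its sorafenib and water levels on both days, in which Nox4 and Nos2 were low with sorafenib, so the sorafenib comparisons are a description of these genes and carry no test. Comparisons between the days, and of the size of the sorafenib effect between the days, were not used to choose them and are tested. These comparisons use the same libraries as the choice, so their p-values are not independent of it. The lists of other genes below were also chosen with earlier results of these data known. Counts of calls within them are a description and no test of the lists.

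Hearts came from wild-type male rats of the strain labelled SD, whose age is not given in the sources used here. The groups were sorafenib for 28 days, water for 28 days, sorafenib for 14 days and water for 14 days, with 3 libraries each. Sorafenib, an inhibitor of RAF kinases and of several receptor tyrosine kinases that is used against cancer, was given at 50 mg per kg once a day, and control rats received the same volume of deionized water. RNA depleted of ribosomal RNA was sequenced, and the deposited values are counts per gene. Nothing in the labels says that the libraries of a group come from different rats, and the p-values below cover only the variation from library to library. Total counts were 13746366 to 26403196 in 11 libraries and 1036483 in sorafenib day 28 replicate 3. In that shallow library 1 count equals 0.826 CPM, the count scaled to a library of 1000000 counts, and 16908 genes had counts, against 21899 to 22748 elsewhere. Each day has its own deposited table, and the file headers name a folder of aligned reads for each day. Time, harvest and any difference in handling or sequencing thus cannot be told apart in comparisons between days. Every marker of cardiomyocytes, endothelium, mural cells, fibroblasts and myeloid cells that was listed had counts in every library, with the cardiomyocyte markers summing to 32430 to 76930 CPM.

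As background, Nox4 is an NADPH oxidase that releases mainly hydrogen peroxide. It is constitutively active, so that its output follows its amount, and it needs the membrane subunit p22phox, encoded by Cyba. Nitric oxide made by the synthases binds soluble guanylate cyclase, a heterodimer of an alpha and a beta subunit, which then makes cyclic GMP and relaxes vessels. Superoxide destroys nitric oxide, and the secreted dismutase Sod3 removes superoxide from the vessel wall. In the heart Nos3 is mainly endothelial, Nos1 is found in cardiomyocytes and nerves, and Nos2 is the synthase induced in inflammation.

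The promoters of Nox4 with its partner Cyba, and of the cyclase subunits, are shown because the levels of the first pair stood apart between groups in different ways and the second pair encodes the subunits of 1 enzyme. RefSeq promoter entries of the GRCr8 assembly, from 250 bases before to 50 after the start, were available for 7 of the 9 genes (all but Nos2 and Sod3). Capitals mark matches, on either strand, to the GC box, spelled GGGCGG. They also mark matches, on either strand, to the box named for its letters, CCAAT. On the opposite strand a GC box reads as CCGCCC. The other box reads there as ATTGG.
Nox4 (chr1:150313639-150313938, plus strand): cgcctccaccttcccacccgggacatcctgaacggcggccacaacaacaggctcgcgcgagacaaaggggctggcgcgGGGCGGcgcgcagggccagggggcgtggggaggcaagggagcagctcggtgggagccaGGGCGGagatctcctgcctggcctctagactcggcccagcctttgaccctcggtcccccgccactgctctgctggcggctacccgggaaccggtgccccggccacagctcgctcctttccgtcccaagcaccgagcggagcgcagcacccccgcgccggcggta
Cyba (chr19:67404165-67404464, minus strand): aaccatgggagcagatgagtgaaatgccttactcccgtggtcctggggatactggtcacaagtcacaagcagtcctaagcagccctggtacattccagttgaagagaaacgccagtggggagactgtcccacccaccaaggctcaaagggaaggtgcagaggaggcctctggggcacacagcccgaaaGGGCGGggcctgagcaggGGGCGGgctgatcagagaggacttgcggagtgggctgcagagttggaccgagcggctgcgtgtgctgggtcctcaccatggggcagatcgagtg
Gucy1a1 (chr2:169779574-169779873, minus strand): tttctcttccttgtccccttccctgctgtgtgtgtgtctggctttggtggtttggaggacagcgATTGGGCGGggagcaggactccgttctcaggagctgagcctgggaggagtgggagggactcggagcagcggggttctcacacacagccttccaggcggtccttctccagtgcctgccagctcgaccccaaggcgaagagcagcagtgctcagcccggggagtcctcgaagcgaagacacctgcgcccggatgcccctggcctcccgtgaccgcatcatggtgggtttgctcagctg
Gucy1b1 (chr2:169696938-169697237, minus strand): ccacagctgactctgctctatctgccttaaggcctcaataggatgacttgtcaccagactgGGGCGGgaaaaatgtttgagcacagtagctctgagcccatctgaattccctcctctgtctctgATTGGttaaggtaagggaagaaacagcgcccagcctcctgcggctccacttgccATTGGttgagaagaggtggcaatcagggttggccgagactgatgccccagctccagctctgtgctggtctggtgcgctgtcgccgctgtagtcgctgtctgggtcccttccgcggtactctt

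The Nox4 promoter had 73.0% G and C, above 95.1% of the 33469 promoters in the table (median 51.7%). GC boxes matched at 2 sites in Nox4 and at 2 sites in Cyba, where 33.1% of all promoters of this length held at least 1. Gucy1a1 held 1 GC box and 1 CCAAT box that overlap each other, and Gucy1b1 held 1 GC box and 2 CCAAT boxes, against 37.5% of all promoters with a CCAAT match. Also searched on both strands were the TATA box TATAAA (14.2% of all promoters), the AP-1 motif TGANTCA (7.3%), the cyclic AMP response motif TGACGT (7.9%) and the ETS motif CCGGAA (15.0%), with no match in these 4 windows. A match is a description of the letters and not a binding site.

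Nox4 lies at chr1:140900886-141078844 on the plus strand of mRatBN7.2, the assembly of the counts, with 20 merged exons that overlap those of no other gene. In CPM, scaled here by TMM normalization, Nox4 had 3.50, 7.43 and 2.46 in sorafenib hearts of day 28, against 12.3, 8.99 and 10.5 in water hearts. In the 14 day groups Nox4 had 8.47, 4.91 and 6.05 CPM in sorafenib hearts, against 27.4, 30.2 and 15.5 in water hearts. On both days every sorafenib library lay below every water library, and the 3 water hearts of day 14 stood above all other libraries. The value of 7.43 CPM comes from the shallow library, where it rests on 9 counts, while the other libraries held 37 to 596 counts. These 9 counts allow 3.4 to 14.1 CPM (exact 95% binomial interval, counting error only), a range that covers the water values of day 28. Mean Nox4 was 4.46 ± 2.62 CPM in sorafenib hearts and 10.6 ± 1.66 in water hearts at day 28, a sorafenib mean of 42.0% of the water mean. The means at day 14 were 6.48 ± 1.81 CPM in sorafenib hearts and 24.4 ± 7.80 in water hearts, or 26.6% (SD, n = 3 each). The log2 fold change was -1.54 ± 0.39 (SE) at day 28, -1.91 ± 0.28 at day 14 and -1.77 ± 0.23 for the mean of both days. Without the shallow library it was -1.82 at day 28. Fibroblast markers summed to 1958 to 5265 CPM in sorafenib hearts and 3427 to 5277 in water hearts at day 28, and to 2906 to 4376 CPM in sorafenib hearts and 3627 to 4352 in water hearts at day 14. The sum of 5265 is that of the shallow library, and the other sorafenib libraries of day 28 had 2224 and 1958, below every water library of that day. Over the mean of both days, 1 of 8 fibroblast markers fell, Lum (-0.77 ± 0.16 SE, adjusted p = 0.0231 by edgeR, in 13 of 16 alternatives), and 0 rose. Of 9 smooth muscle and pericyte markers 1 fell, Kcnj8 (-0.63 ± 0.12 SE, adjusted p = 0.0185 by edgeR, in 14 of 16), and 0 rose. Of all genes, 2.41% were called lower in this contrast. Leaving out either sorafenib day 28 replicate 2 or water day 14 replicate 3 ended both calls, and leaving out sorafenib day 14 replicate 6 ended that of Lum. The 9 smooth muscle and pericyte markers went both ways, with 5 below 0 and 4 above for the mean of both days. Myh11, Acta2, Tagln and Cnn1 were higher in every sorafenib library than in every water library at day 14. Their log2 fold changes there were 0.83, 0.76, 0.64 and 1.25, none of them called. At day 14, 21.1% of all genes tested did not overlap between sorafenib and water. Smooth muscle and pericyte markers summed to 736 to 946 CPM in sorafenib hearts and 986 to 1047 in water hearts at day 28, and to 959 to 1044 CPM in sorafenib hearts and 843 to 1020 in water hearts at day 14. The part of these cells in the Nox4 level was not tested. In RNA of whole hearts, fewer cells of a type and less RNA per cell cannot be told apart.

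Cyba encodes p22phox, which stabilises Nox4 at the membrane, and lies at chr19:50487598-50495669 on the minus strand. It had 3.73, 5.78 and 6.19 CPM in sorafenib hearts of day 28, against 6.94, 6.14 and 9.02 in water hearts. At day 14 its level was 2.42, 3.31 and 3.75 CPM in sorafenib hearts, against 4.45, 4.11 and 2.69 in water hearts. The groups overlapped on both days. Its log2 fold change for sorafenib was -0.51 ± 0.32 (SE) at day 28 and -0.24 ± 0.29 at day 14. Per kilobase of exon, the ratio of Nox4 to Cyba was 0.159, 0.218 and 0.0675 in sorafenib hearts of day 28, against 0.301, 0.248 and 0.198 in water hearts. The ratio of 0.218 and the Cyba value of 5.78 CPM are those of the shallow library, which held 9 counts of Nox4 and 7 of Cyba. At day 14 the ratio was 0.593, 0.251 and 0.273 in sorafenib hearts, against 1.04, 1.25 and 0.977 in water hearts. On this per-length scale Nox4 RNA was about as abundant as Cyba RNA in the water hearts of day 14 and lower than Cyba RNA in all 9 other libraries.

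Poldip2, a protein reported to bind p22phox and raise Nox4 activity in vascular smooth muscle, lies at chr10:63408766-63417605 on the plus strand. It had 111, 73.5 and 153 CPM in sorafenib hearts of day 28, against 152, 165 and 199 in water hearts. Poldip2 at day 14 had 70.3, 129 and 127 CPM in sorafenib hearts, against 124, 116 and 131 in water hearts. The groups overlapped on both days, and the lowest value at day 28 is that of the shallow library. The log2 fold change was -0.56 ± 0.23 (SE) at day 28, or -0.37 without the shallow library, and -0.18 ± 0.21 at day 14.

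**Figure D1:**
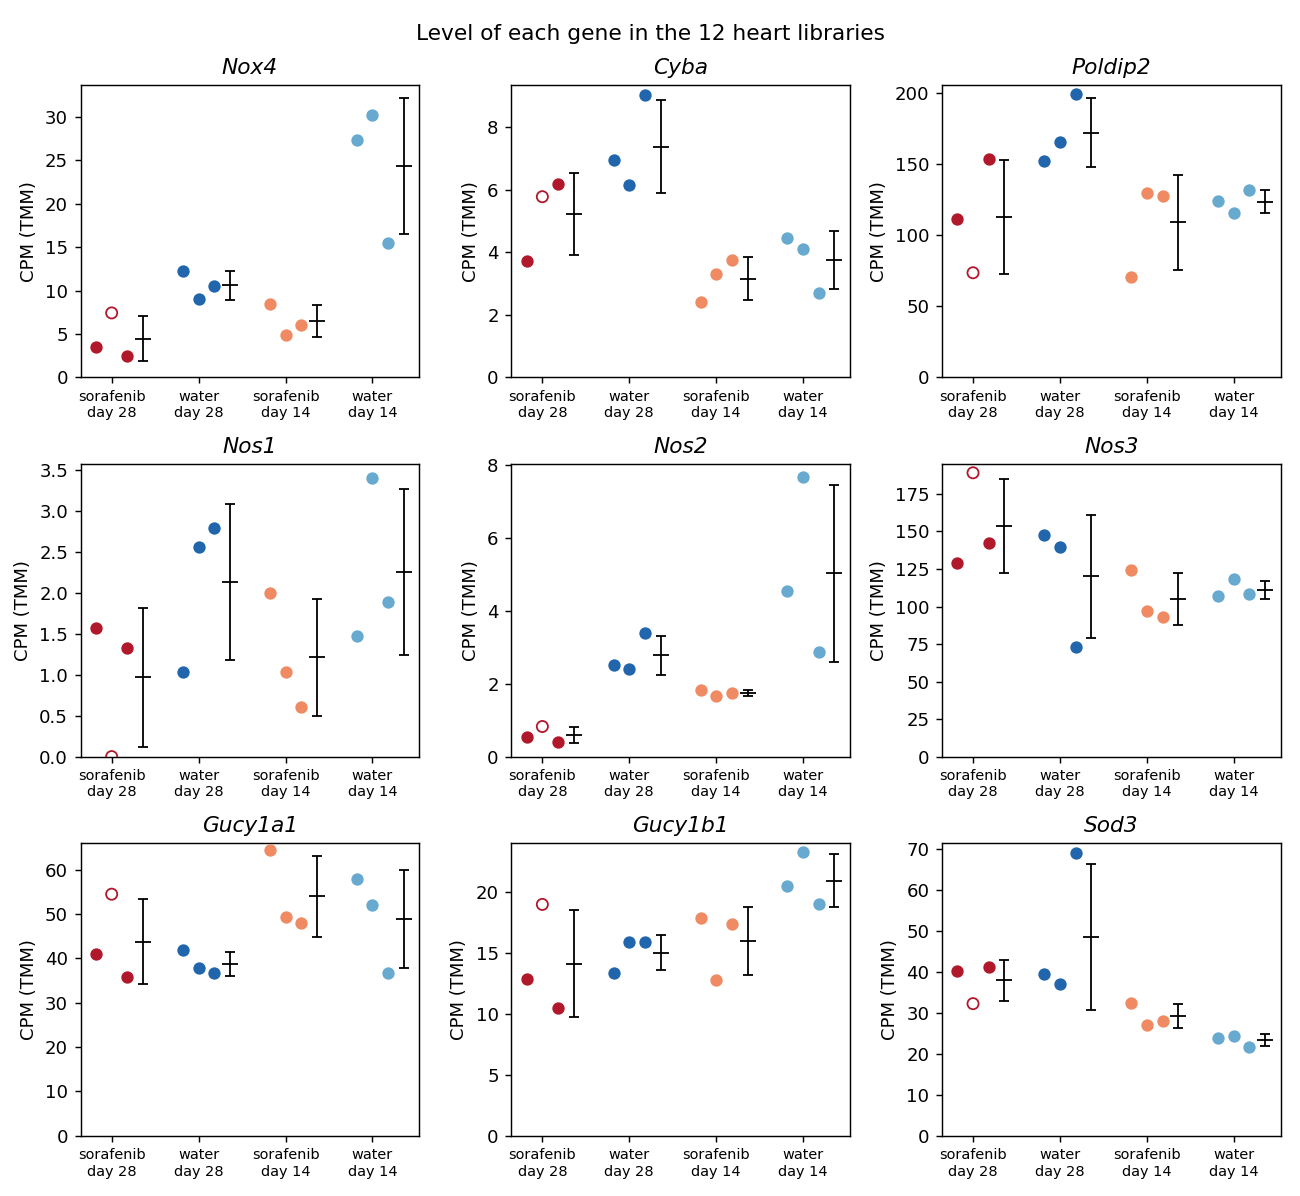
TMM-normalized CPM of each of the 9 genes in the 12 libraries, by group. Points are libraries, the open circle is sorafenib day 28 replicate 3 (the shallow library), and bars give mean and SD of the 3 libraries. Nox4 and Nos2 are lower in every sorafenib library than in every water library of the same day, while the groups overlap for Cyba, Poldip2, Nos1, Nos3 and Gucy1a1 on both days.

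Among the synthases, Nos2 was the one whose groups stood apart. This inducible enzyme, whose level sets its output because it is active once made, lies at chr10:63815308-63851208 on the plus strand, 397702 bases from Poldip2. It had 0.524, 0.826 and 0.399 CPM in sorafenib hearts of day 28, against 2.51, 2.41 and 3.40 in water hearts. After 14 days the level was 1.81, 1.66 and 1.76 CPM in sorafenib hearts, against 4.55, 7.66 and 2.86 in water hearts. Every sorafenib library lay below every water library on both days, and the sorafenib hearts of day 28 were the lowest of all. Counts were few: 9, 1 and 6 in sorafenib hearts of day 28, against 51, 49 and 72 in water hearts. At day 14 they were 30, 29 and 29 in sorafenib hearts, against 87, 151 and 53 in water hearts. The 1 count of the shallow library allows 0.0209 to 4.6 CPM (exact 95% binomial interval, counting error only), a range that covers the water values of that day. The log2 fold change was -2.46 ± 0.52 (SE) at day 28, -2.55 without the shallow library, and -1.52 ± 0.37 at day 14. Without water day 14 replicate 3, the highest library, the value at day 14 was -1.09. Of its exon bases, 572 (9.71%) are shared with LOC106736471 on the opposite strand, and these 572 are all the exon bases of that gene. Counting used no strand and no option for reads of several genes, per the file headers, so reads touching both genes were counted for neither. The 0 counts of LOC106736471 in every library follow from this and do not show whether it is expressed. Nos2 can also lose reads on these bases, while its level per kilobase uses its full exon length.

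Nos1, the neuronal synthase, lies at chr12:38615111-38795492 on the minus strand and was scarce, like Nos2. It had 1.57, 0 and 1.33 CPM in sorafenib hearts of day 28, against 1.03, 2.56 and 2.79 in water hearts. Nos1 at day 14 had 1.995, 1.03 and 0.605 CPM in sorafenib hearts, against 1.47, 3.40 and 1.89 in water hearts. The groups overlapped on both days. The value of 0 is that of the shallow library, where a count of 0 allows up to 3.05 CPM (upper bound of the exact 95% binomial interval), a range that covers the water values of that day. Log2 fold changes were -0.70 ± 0.59 (SE) at day 28, -0.53 without the shallow library, and -0.89 ± 0.49 at day 14. Exons of Nos1 share 140 bases (2.31%) with LOC120095990 on the opposite strand, which has 0 to 3 counts per library.

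Nos3, the endothelial synthase that keeps vessels relaxed, lies at chr4:10793834-10814170 on the minus strand and was the abundant isoform. It had 129, 189 and 142 CPM in sorafenib hearts of day 28, against 148, 140 and 73.2 in water hearts. Nos3 at day 14 had 125, 97.2 and 93.2 CPM in sorafenib hearts, against 107, 118 and 109 in water hearts. The groups overlapped on both days, with the highest value in the shallow library. The log2 fold change was 0.38 ± 0.28 (SE) at day 28, 0.18 without the shallow library, and -0.08 ± 0.15 at day 14. The 8 endothelial markers summed to 1340 to 1515 CPM in sorafenib hearts and 1466 to 1613 in water hearts at day 28, and to 1398 to 1790 CPM in sorafenib hearts and 1477 to 1820 in water hearts at day 14. The sum of 1515 is that of the shallow library, and the other sorafenib libraries of day 28 had 1450 and 1340, below every water library of that day. The part of endothelial cells in the Nos3 level was not tested.

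The cyclase subunits are neighbours on chromosome 2, at chr2:167418615-167482293 (Gucy1a1, the alpha subunit) and chr2:167348824-167398983 (Gucy1b1, the beta subunit that carries the haem to which nitric oxide binds). Both lie on the minus strand, 19631 bases apart with 1 gene between them. Gucy1a1 had 41.0, 54.5 and 35.9 CPM in sorafenib hearts of day 28, against 41.9, 37.8 and 36.8 in water hearts. Its level at day 14 was 64.5, 49.4 and 48.1 CPM in sorafenib hearts, against 58.0, 52.0 and 36.6 in water hearts. Its groups overlapped on both days, with log2 fold changes of 0.17 ± 0.20 (SE) at day 28, -0.01 without the shallow library, and 0.15 ± 0.19 at day 14. Gucy1b1 had 12.9, 19.0 and 10.5 CPM in sorafenib hearts of day 28, against 13.3, 15.9 and 15.9 in water hearts. At day 14 it had 17.8, 12.8 and 17.4 CPM in sorafenib hearts, against 20.5, 23.3 and 19.0 in water hearts. For this subunit the groups overlapped at day 28, while at day 14 every sorafenib library was below every water library. The log2 fold change of Gucy1b1 was -0.16 ± 0.25 (SE) at day 28, -0.35 without the shallow library, and -0.39 ± 0.17 at day 14. Per kilobase of exon, the alpha to beta ratio averaged 2.02 ± 0.171 in sorafenib hearts and 1.67 ± 0.295 in water hearts at day 28. At day 14 it averaged 2.18 ± 0.367 in sorafenib hearts and 1.49 ± 0.295 in water hearts (SD, n = 3 each). The alpha subunit was the higher of the pair in all 12 libraries, whose ratios ran from 1.23 to 2.47.

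Sod3, the dismutase secreted into the extracellular space, lies at chr14:58610104-58615845 on the minus strand. It had 40.2, 32.2 and 41.2 CPM in sorafenib hearts of day 28, against 39.5, 37.0 and 68.9 in water hearts. Sod3 at day 14 had 32.5, 27.0 and 28.1 CPM in sorafenib hearts, against 23.9, 24.3 and 21.6 in water hearts. The groups overlapped at day 28, and at day 14 every sorafenib library was above every water library. The log2 fold change was -0.30 ± 0.24 (SE) at day 28 and 0.33 ± 0.14 at day 14. Leaving out water day 28 replicate 4, the highest library, turned the value at day 28 to 0.04.

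Counted over the 9 genes, 7 had a log2 fold change below 0 at day 28 (50.2% of all genes tested) and 7 at day 14 (49.8%), with medians of -0.51 and -0.24, against -0.00 and 0.00 over all genes tested. At day 28, 2 genes (Nox4 and Nos2) did not overlap between sorafenib and water, where 22% of the 17021 genes tested did not, and at day 14 it was 4 genes (Nox4, Nos2, Gucy1b1 and Sod3), where 21.1% of 17406 did not. By edgeR's quasi-likelihood test, 0 of the 9 were called at day 28 and 0 at day 14, as were 0% of all genes on each day, while 2531 genes (14.9%) and 2440 genes (14%) had an unadjusted p under 0.05. DESeq2 called 268 genes at day 28 and 393 at day 14, Nox4 and Nos2 among them on both days. For the mean of both days edgeR called 2 of the 9 (Nox4 and Nos2, both lower), where 4.41% of 18174 genes were called and 2.41% were called lower. Since the genes were chosen with these contrasts known, nothing is read from these counts.

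**Figure D2:**
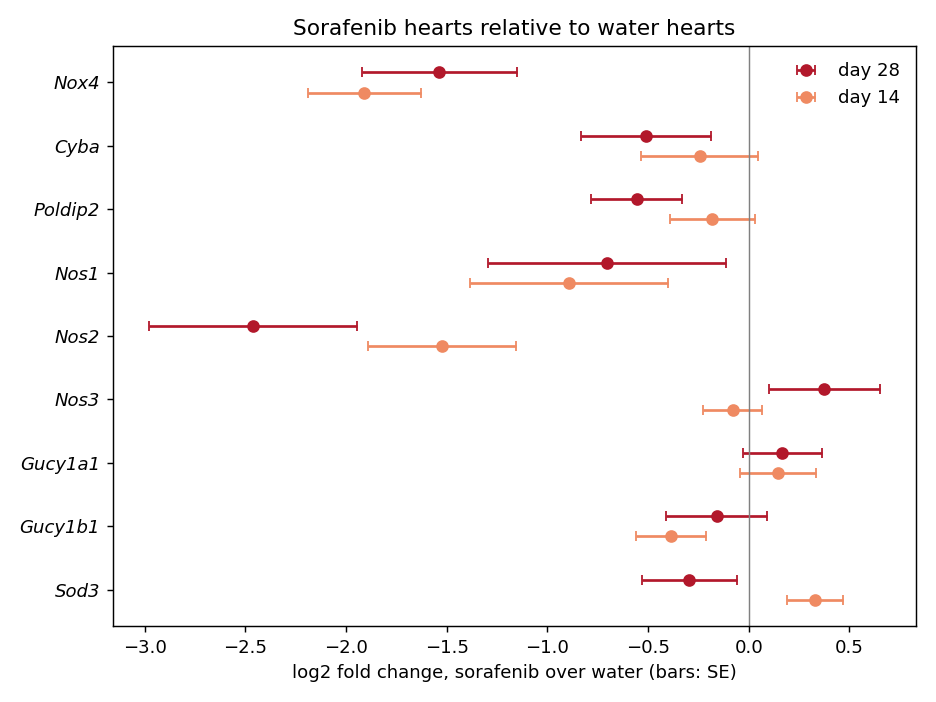
Log2 fold change of sorafenib over water for the 9 genes at day 28 and day 14, with SE as bars. Nox4 and Nos2 have the lowest values on both days (-1.54 and -2.46 at day 28, -1.91 and -1.52 at day 14), and Nos3, Gucy1a1, Gucy1b1 and Sod3 lie within 0.5 of 0.

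Whether these genes moved with time was asked first in rats that received water, in which day 28 was compared with day 14. Sod3 rose and Nox4 fell in these hearts. Sod3 averaged 48.5 ± 17.8 CPM at day 28 and 23.3 ± 1.49 CPM at day 14 (SD, n = 3 each), a ratio of 2.08. Its log2 fold change was 1.06 ± 0.21 (SE, adjusted p = 0.00687 by edgeR's quasi-likelihood test), and it was past the threshold of 0.05 in all 17 alternative fits (0.72 to 1.22), including those without the high library of day 28. Nox4 averaged 10.6 ± 1.66 CPM at day 28 and 24.4 ± 7.80 CPM at day 14, a log2 fold change of -1.20 ± 0.30 (SE, adjusted p = 0.0233 by edgeR's quasi-likelihood test). No library of day 28 reached any of day 14. The Nox4 call was lost when water day 14 replicate 2 (adjusted p = 0.0928 by the same edgeR test), water day 14 replicate 3 (0.123), water day 28 replicate 3 (0.0967) or water day 28 replicate 4 (0.0615) was left out, and it was kept in 13 of 17 alternatives, at -1.44 to -1.02 over all of them. Of the 9 genes 2 were thus called between the water groups, where 8.51% of 18174 genes were called, 5.8% higher and 2.7% lower. These water libraries also serve as controls in the sorafenib comparisons above.

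Cyba was higher in every water library of day 28 without passing the test. It averaged 7.37 ± 1.49 CPM at day 28 and 3.75 ± 0.931 CPM at day 14, a log2 fold change of 0.97 ± 0.29 (SE, adjusted p = 0.0552 by edgeR's test, 0.0234 by DESeq2). Poldip2 had 0.48 ± 0.25 (adjusted p = 0.258 by edgeR) and Nos2 had -0.86 ± 0.35 (adjusted p = 0.148). Gucy1b1 was lower in every library of day 28, at -0.48 ± 0.20 (adjusted p = 0.149 by edgeR), and Gucy1a1 had -0.34 ± 0.19 (adjusted p = 0.297). Nos1 and Nos3 had -0.08 ± 0.52 and 0.11 ± 0.23, with intervals of -1.20 to 1.03 and -0.38 to 0.60. In all, 5 of the 9 genes did not overlap between the water days, where 33.8% of all genes did not.

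In sorafenib hearts, edgeR called 0 of the 9 genes between day 28 and day 14, where 3.32% of genes were called, 3476 genes (19.1%) had an unadjusted p under 0.05, and DESeq2 called 1290 genes with Nos2 among them. Nos2 had the largest difference, at 0.583 ± 0.219 CPM at day 28 and 1.74 ± 0.0794 CPM at day 14 (SD, n = 3 each), with no overlap. Its log2 fold change was -1.83 ± 0.48 (SE, adjusted p = 0.0517 by edgeR), just outside the threshold, and it passed in 5 of 17 alternatives. Without the shallow library it was -1.90 (adjusted p = 0.0541 by edgeR). Nox4 had -0.91 ± 0.36 (adjusted p = 0.176 by edgeR), or -1.12 without the shallow library (0.0896). Nos3 was higher in every sorafenib library of day 28, at 0.53 ± 0.23 (adjusted p = 0.227 by edgeR), or 0.36 without the shallow library. Cyba had 0.68 ± 0.32 (adjusted p = 0.264 by edgeR) and Sod3 had 0.40 ± 0.21 (adjusted p = 0.324). Gucy1a1, Gucy1b1, Poldip2 and Nos1 had -0.35, -0.30, 0.07 and 0.10, with adjusted p from 0.36 to 0.96 by edgeR. Non-overlap between the sorafenib days held for 2 of the 9 genes (Nos2 and Nos3), where 22.2% of all genes did not overlap.

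**Figure D3:**
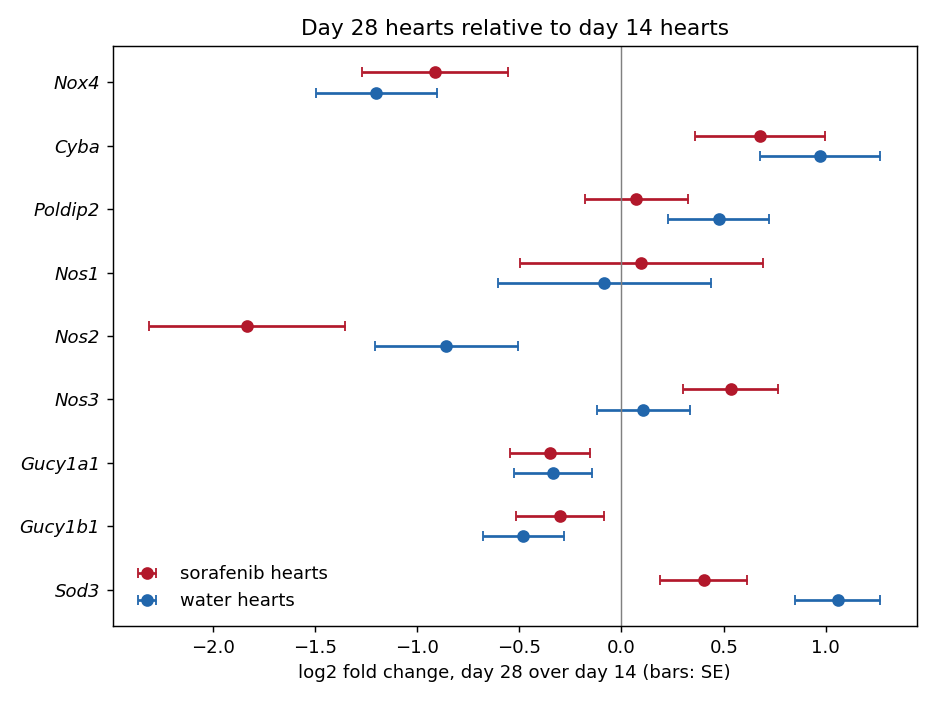
Log2 fold change of day 28 over day 14 for the 9 genes in sorafenib hearts and in water hearts, with SE as bars. Nox4 and Nos2 lie below 0 and Cyba and Sod3 above 0 in both, with Sod3 at 0.40 in sorafenib hearts and 1.06 in water hearts.

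The sorafenib effect at day 28 minus that at day 14 was tested in 1 fit of all 12 libraries. None of the 9 genes passed edgeR's test (0 of 9, adjusted p = 0.999 for each), and neither did any of 18174 genes (0%), of which 803 (4.42%) had an unadjusted p under 0.05 and 5 were called by DESeq2. For Nox4 the difference of effects was 0.29 ± 0.46 (SE), with a 95% interval of -0.70 to 1.28 on the log2 scale. For Nos2 it was -0.97 ± 0.59, with an interval of -2.24 to 0.29. Sod3 had the value farthest from its error, -0.66 ± 0.29 with an interval of -1.29 to -0.03 and an unadjusted edgeR p of 0.0424, which did not hold after adjustment over all genes. These intervals, which are not adjusted over genes, hold the differences of effect that are compatible with these libraries. Without the shallow library the Nox4, Nos2 and Sod3 values were 0.08, -1.04 and -0.59.

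Levels can be compared between the genes per kilobase of exon. In every group the order began with Poldip2, Nos3 and Sod3 and ended with Nos2 and Nos1, the last pair in either order. Mean Poldip2 was 63.5 CPM per kilobase in sorafenib hearts and 97.0 in water hearts at day 28, and 61.4 in sorafenib hearts and 69.7 in water hearts at day 14. The scarcest, Nos1 and Nos2, had group means between 0.0990 and 0.852 CPM per kilobase. Nox4 stood seventh of 9 in sorafenib and water hearts of day 28 (1.08 and 2.58 CPM per kilobase) and in sorafenib hearts of day 14 (1.57). In water hearts of day 14 it stood sixth, at 5.92 CPM per kilobase, between Gucy1b1 (6.02) and Cyba (5.37), from neither of which it differed beyond the spread of the libraries. Neighbours in the order that overlapped were Poldip2 with Nos3, Gucy1a1 with Cyba, and Cyba with Gucy1b1 in sorafenib hearts of day 28, Nos3 with Sod3 in water hearts of day 28, and Gucy1b1 with Cyba in sorafenib hearts of day 14. Nos2 and Nos1 overlapped in all 4 groups.

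**Figure D4:**
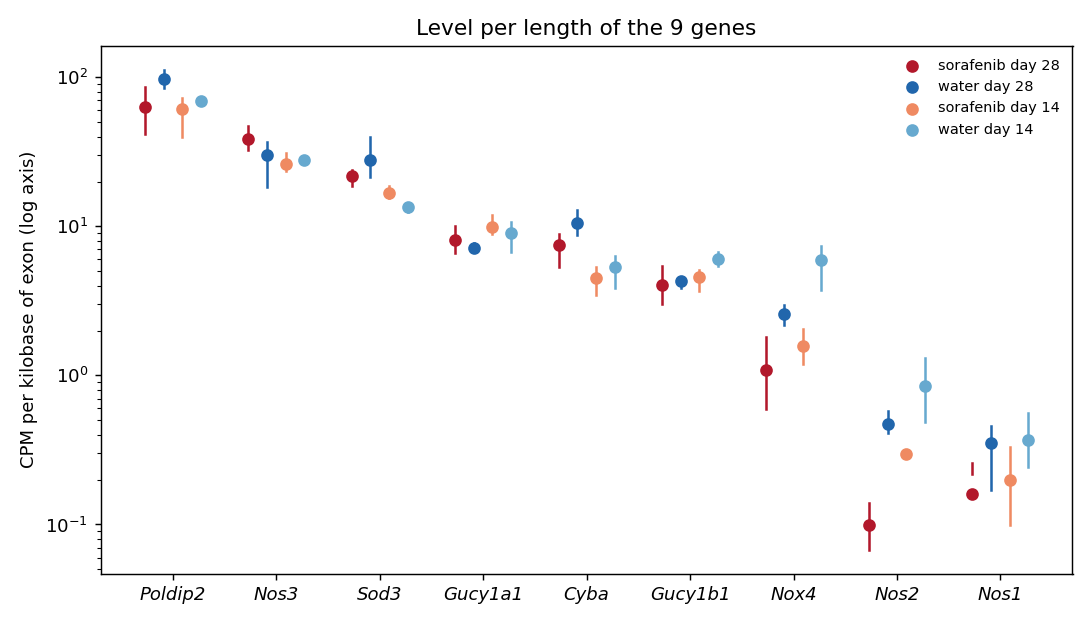
Level of the 9 genes in CPM per kilobase of exon on a log axis, by group. Points are group means and lines run from the lowest to the highest of the 3 libraries, with the library at 0 for Nos1 left out of its line. Poldip2, Nos3 and Sod3 are the most abundant in each group, and Nox4 covers the widest relative range among the genes whose means are above 1 CPM per kilobase, with means from 1.08 to 5.92.

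Among 15753 genes with a mean of at least 1 CPM, the profiles over the 12 libraries closest to that of Nox4 were those of Nrp2, Elk3, Tmem229b, Ralb and Cmtm3. Likeness was the root mean square difference of log2 CPM scaled to mean 0 and SD 1, which was 0.293 for Nrp2, 0.297 for Elk3, 0.323 for Tmem229b, 0.347 for Ralb and 0.355 for Cmtm3. Nrp2, a co-receptor for vascular endothelial growth factors and semaphorins, averaged 34.2 ± 11.2 CPM in sorafenib hearts and 92.8 ± 9.08 in water hearts at day 28, and 63.4 ± 16.9 CPM in sorafenib hearts and 142 ± 29.6 in water hearts at day 14 (SD, n = 3 each). Elk3, an ETS factor of endothelial cells, averaged 45.6 and 58.2 CPM in sorafenib and water hearts of day 28, and 50.6 and 74.9 CPM in those of day 14. Among the other 8 genes of the set, Nos2 was the closest to Nox4, eighth of all genes at 0.377, followed by Gucy1b1 at 0.567 (rank 138), and the other 6 lay between 1.12 and 1.6. Without the shallow library the closest genes were Tnfaip3, Nrp2, Elk3, Nlrc4 and Tmem229b, which shares 3 of 5. All profiles share the depth of each library, and no test belongs to this ranking. The set was chosen by levels in these same 12 libraries, with Nox4 and Nos2 both low with sorafenib. The closeness of Nos2 to Nox4 is thus partly given by the choice and is a description only.

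**Figure D5:**
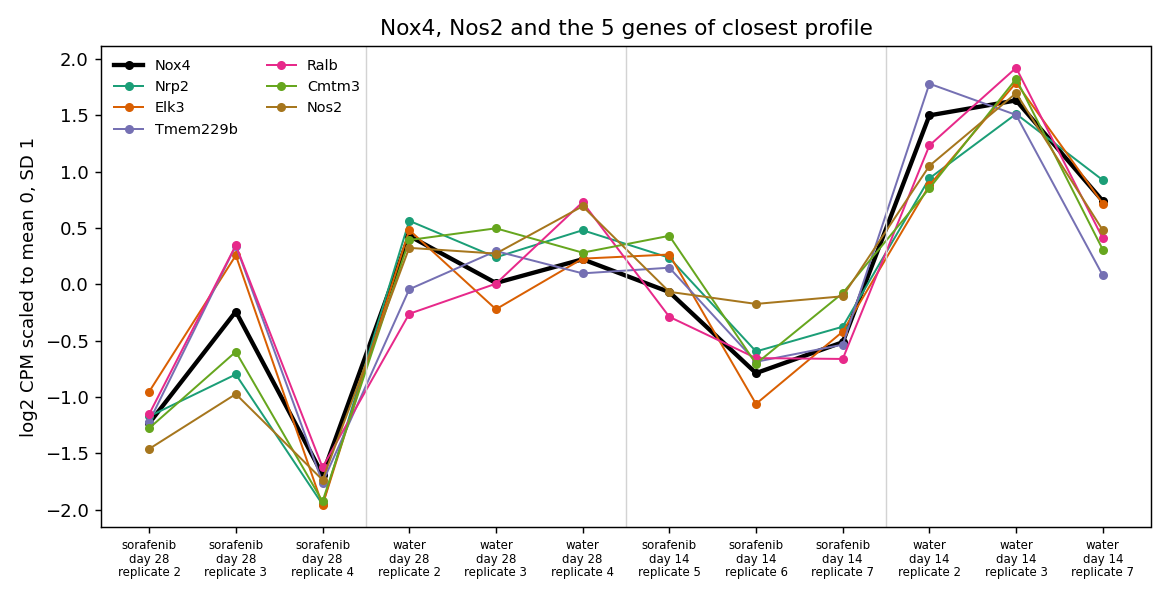
Log2 CPM scaled to mean 0 and SD 1 over the 12 libraries for Nox4 (thick line), Nos2 and the 5 genes of closest profile. Lines join libraries only to guide the eye. Each gene is highest in a water heart of day 14 and lowest in sorafenib day 28 replicate 4.

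Of the 15 other NADPH oxidase genes, 10 could be tested, and 2 fell while 0 rose in sorafenib hearts over the mean of both days by edgeR (2.41% of all genes were called lower), with a list median of -0.30 against -0.01 over all genes. Cybb, the catalytic subunit of the phagocyte oxidase and the other main partner of p22phox, averaged 7.53 ± 4.33 CPM in sorafenib hearts and 12.97 ± 4.41 in water hearts at day 28, and 7.13 ± 2.73 CPM in sorafenib hearts and 16.2 ± 6.03 in water hearts at day 14 (SD, n = 3 each). Its log2 fold change was -1.14 ± 0.27 (SE, adjusted p = 0.0375 by edgeR). Duoxa1, the maturation factor of the dual oxidase Duox1, was barely present, with 15 counts in sorafenib hearts and 47 in water hearts at day 28, and 2 counts in sorafenib hearts and 35 in water hearts at day 14 (adjusted p = 0.0354 by edgeR). DESeq2 gave Duoxa1 no adjusted p, and edgeR called 0 genes of any list at day 28 alone or at day 14 alone. The 10 myeloid markers, a cell type in which Cybb is abundant, summed to 106 to 306 CPM in sorafenib hearts and 232 to 356 in water hearts at day 28, and to 113 to 245 CPM in sorafenib hearts and 193 to 376 in water hearts at day 14. The sum of 306 is that of the shallow library, and the other sorafenib libraries of day 28 had 106 and 160, below every water library of that day. Of the 10 myeloid markers 2 fell by edgeR over the mean of both days, C1qa (-1.23 ± 0.33 SE, adjusted p = 0.0492) and Adgre1 (-1.31 ± 0.29, 0.0290), and 0 rose. Both marker calls were lost without sorafenib day 28 replicate 2, that of C1qa held in 3 of 16 alternatives and that of Adgre1 in 9, and all 10 markers were detected in every library. The part of myeloid RNA in the Cybb and Nos2 levels was not tested.

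Among 19 genes that remove superoxide and peroxide, 1 fell and 0 rose with sorafenib over both days by edgeR, where 2.41% of all genes were called lower (median -0.22). Gpx1, the cytosolic glutathione peroxidase, averaged 163 ± 42.4 CPM in sorafenib hearts and 295 ± 47.0 in water hearts at day 28, and 175 ± 65.5 CPM in sorafenib hearts and 296 ± 47.1 in water hearts at day 14, a log2 fold change of -0.81 ± 0.19 (SE, adjusted p = 0.0327 by edgeR). Between the days, 4 of the 19 rose and 0 fell at day 28 relative to day 14 in water hearts (5.8% of all genes were called higher): Srxn1, which repairs oxidised peroxiredoxins (2.24 ± 0.23 SE, adjusted p = 0.00022 by edgeR), the cytosolic dismutase Sod1 (1.62 ± 0.25, 0.00173), the peroxiredoxin Prdx5 (1.06 ± 0.19, 0.00451) and the mitochondrial thioredoxin reductase Txnrd2 (0.80 ± 0.21, 0.0348). In sorafenib hearts 3 rose and 0 fell (2.27% of all genes were called higher), Srxn1 (1.44 ± 0.23, adjusted p = 0.00644 by edgeR), Sod1 (0.98 ± 0.25, 0.0470) and Txnrd1 (0.72 ± 0.18, 0.0466). Srxn1 averaged 31.98 ± 9.28 CPM in sorafenib hearts and 59.6 ± 13.4 in water hearts at day 28, and 12.3 ± 0.644 CPM in sorafenib hearts and 12.6 ± 3.40 in water hearts at day 14. In the water hearts Sod1 and Sod3, the cytosolic and the secreted dismutase, were both called higher at day 28. The Srxn1 calls held in all 17 alternatives on both treatments, as did those of Sod1 and Prdx5 in water hearts, while Txnrd2 passed in 12 and was lost without any 1 water library of day 14 and without water day 28 replicate 3 or 4. In sorafenib hearts Sod1 passed in 9 and Txnrd1 in 8 of 17, and both were lost without sorafenib day 14 replicate 5 or 6, sorafenib day 28 replicate 2 or 4, or water day 28 replicate 2 or 3. Cardiomyocyte markers moved with the same contrast: in water hearts 2 of 8 rose (Tnnt2 by 1.23 ± 0.23 and Tnni3 by 1.47 ± 0.28, adjusted p = 0.00513 and 0.00557 by edgeR), and the 8 summed to 51540 to 76930 CPM at day 28 and 38220 to 50140 CPM at day 14. Of 9 smooth muscle and pericyte markers 3 rose in the same contrast (Cnn1 among them, by 1.86 ± 0.50, adjusted p = 0.0350 by edgeR, in 11 of 17 alternatives), and the 9 summed to 986 to 1047 CPM at day 28 and 843 to 1020 CPM at day 14. The part of these cells in the values above, those of Sod3 and Nox4 included, was not tested.

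Of 26 genes that supply or control the synthases, 3 fell and 0 rose with sorafenib over both days by edgeR, where 2.41% of all genes were called lower (median -0.25). Calm2, a gene of the calcium sensor calmodulin that switches on Nos1 and Nos3, averaged 53.5 ± 22.7 CPM in sorafenib hearts and 89.7 ± 9.96 in water hearts at day 28, and 46.7 ± 2.54 CPM in sorafenib hearts and 77.8 ± 7.15 in water hearts at day 14 (SD, n = 3 each). Its log2 fold change was -0.71 ± 0.15 (SE, adjusted p = 0.0264 by edgeR). Cav1, the caveolin that holds Nos3 inactive in endothelial caveolae, averaged 170 ± 17.7 CPM in sorafenib hearts and 306 ± 6.64 in water hearts at day 28, and 374 ± 19.9 CPM in sorafenib hearts and 471 ± 129 in water hearts at day 14, with -0.59 ± 0.13 over both days (adjusted p = 0.0283 by edgeR). Between the days Cav1 fell in sorafenib hearts (-1.14 ± 0.19, adjusted p = 0.00698 by edgeR, in all 17 alternatives) and in water hearts (-0.62 ± 0.18), where its adjusted p of 0.05 lies just under the threshold before rounding. Nosip, which binds Nos3 and moves it from the membrane, rose in water hearts (0.69 ± 0.17, adjusted p = 0.0235 by edgeR), a call lost without water day 14 replicate 2 or 3 or water day 28 replicate 3 or 4. The Cav1 call in water hearts held in 7 of 17 alternatives. Some endothelial markers moved beside Cav1: Kdr and Emcn were 2 of 8 that fell with sorafenib over both days (-0.73 ± 0.15 and -0.54 ± 0.13, adjusted p = 0.0215 and 0.0381 by edgeR) and the same 2 fell between the days in sorafenib hearts (-0.84 ± 0.21 and -0.97 ± 0.19, adjusted p = 0.0442 and 0.0154 by edgeR). The 8 endothelial markers did not move as a set, with 5 below 0 and 3 above in each of these contrasts. Of all genes, 2.41% were called lower over both days and 1.06% between the sorafenib days. Over both days these marker calls held in 14 (Kdr) and 7 (Emcn) of 16 alternatives, and between the days in 6 and 14 of 17. Their part in the Cav1 values was not tested.

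The calls of Cybb, Duoxa1, Gpx1, Calm2 and Cav1 for the mean of both days rest on all libraries together. Each was lost without sorafenib day 28 replicate 2, without water day 14 replicate 3 and without water day 28 replicate 3, and the number of genes called in all dropped to 35 without the first of these, against 801 with it. Some were also lost without water day 14 replicate 2 or 7, sorafenib day 14 replicate 5, 6 or 7, water day 28 replicate 2 or 4, or sorafenib day 28 replicate 3. In every alternative fit they kept their sign. The lists that hold these genes were chosen with earlier results of these data known, so the calls are a description.

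Cyclic GMP signalling, with 17 of 18 genes tested, had 0 genes called for sorafenib over both days by edgeR, 4 with an unadjusted p under 0.05 (24.3% of all genes) and a median of -0.09. The smallest p belonged to Gucy1a2, the other alpha subunit of the cyclase (-0.38 ± 0.10 SE, adjusted p = 0.0507 by edgeR), and Npr3, the clearance receptor for natriuretic peptides (-0.40 ± 0.13, 0.0898). Between the days Pde1a, a phosphodiesterase that degrades cyclic GMP, fell in sorafenib hearts (-0.84 ± 0.20, adjusted p = 0.0376 by edgeR), at 20.5 ± 4.45 CPM at day 28 and 35.1 ± 4.56 CPM at day 14. It passed in 9 of 17 alternatives and was lost without any 1 sorafenib library other than the shallow one, or without replicate 3 of either water group, and 1.06% of all genes were called lower in this contrast.

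The 13 genes known to raise Nox4 and the 14 known to raise Nos2 (12 tested) had 0 calls for sorafenib over both days by edgeR, with 5 and 0 genes at an unadjusted p under 0.05, where 24.3% of all genes had one, and medians of -0.12 and -0.19. Tgfb1, the growth factor that induces Nox4 in fibroblasts, had -0.40 ± 0.13 (SE, adjusted p = 0.0904 by edgeR) and its mediator Smad3 had -0.24 (0.155). Among the genes upstream of Nos2, the interferon gamma receptor chain Ifngr2 had -0.27 (adjusted p = 0.229 by edgeR). Between the days in water hearts Tgfb1 rose (0.83 ± 0.18, adjusted p = 0.0130 by edgeR) while its receptor Tgfbr1 fell (-0.69 ± 0.15, 0.0125), beside the lower Nox4 of day 28. Tgfb1 averaged 16.5 ± 2.28 CPM in sorafenib hearts and 26.5 ± 2.51 in water hearts at day 28, and 13.5 ± 2.89 CPM in sorafenib hearts and 14.9 ± 1.97 in water hearts at day 14. Epas1, a hypoxia-inducible factor subunit, also rose in water hearts (0.64 ± 0.18, adjusted p = 0.0428 by edgeR). The Tgfb1 call was lost without water day 14 replicate 3 or 7, that of Tgfbr1 without water day 28 replicate 3, and that of Epas1, which held in 7 of 17 alternatives, without any 1 water library. Interferon gamma and interleukin 6, the genes Ifng and Il6, had too few counts to be tested.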

How the data were processed

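Counts per gene were deposited by the authors as 1 table per day, made with featureCounts 2.0.1 on the RefSeq annotation of mRatBN7.2, per the file headers. The command recorded there names paired-end data and sets no strand option, although the library kit keeps strand. Reads were aligned with STAR, per the submitters' processing notes. The 2 columns of counts that match no sample here were not used. CPM was computed from the counts after TMM scaling, and per kilobase with the exon length in the tables. The test was edgeR 4.0.16's quasi-likelihood test (R 4.3.3, limma 3.58.1) with robust dispersion after filterByExpr, with p-values Benjamini-Hochberg adjusted over all genes tested and 0.05 as the threshold. Sorafenib and water were compared within a day on 6 libraries, and the other contrasts were fitted on all 12 libraries. DESeq2 1.42.0, other scaling and filters, a replicate block and leaving out each library were alternatives, and the fits were tested on simulated data. Within groups libraries differed by more than counting noise (smallest chi-square 8.075 per gene). Intervals of single counts are exact and cover counting error only. The 9 genes and all lists were chosen with earlier results of these data known. Named beside them are list genes called in any contrast, otherwise the 2 of smallest p in the mean of both days, up to 2 markers per cell type, and the 5 profiles closest to Nox4 among genes with a mean of at least 1 CPM, leaving out symbols that start with LOC or RGD (log2 CPM with prior count 2). Values of some list genes that this rule names are not reported here.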

Additional observations from a re-analysis of the deposited data

How the results depend on the processing

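The number of genes called in all depended on the fit more than the values of the 9 genes did. At day 28 edgeR called 0 genes, against 82 with no filter on low counts, 268 with DESeq2, 53 with all 4 groups in one fit, 108 with the replicate block and 0 to 3 without 1 library. At day 14 it called 0 genes, against 87 with no filter, 393 with DESeq2, 4 with all 4 groups in one fit and 0 to 27 without 1 library. For the mean of both days 801 genes were called, 1765 with DESeq2 and 35 to 1562 without 1 library (lowest without sorafenib day 28 replicate 2, highest without sorafenib day 28 replicate 4). The difference of effects gave 0 genes, 5 with DESeq2 and 0 to 1 without 1 library. Between the days, 604 genes were called in sorafenib hearts, 1290 with DESeq2, 383 with only these 2 groups and 175 to 822 without 1 library (lowest without sorafenib day 14 replicate 6). In water hearts 1546 were called, 2255 with DESeq2 and 558 to 1812 without 1 library (lowest without water day 14 replicate 3). The causes were not tested. In the tested contrasts, the values of the 9 genes that changed sign had passed no test in the contrast concerned. The difference of effects of Gucy1a1, -0.02, was 0.0021 with RLE scaling, 0.0053 with the stricter filter and 6e-04 with DESeq2, and -0.1637 to 0.1656 without 1 library, and that of Nos1 was -0.2403 to 0.754. Between the days without 1 library, Nos1 had -0.2219 to 0.6598 and Poldip2 -0.2177 to 0.2635 in sorafenib hearts, while Nos1 had -0.3295 to 0.3252 and Nos3 -0.0606 to 0.3663 in water hearts. In the untested sorafenib contrasts, leaving out 1 library also turned Sod3 (0.04), Gucy1a1 (-0.01) and Gucy1b1 (0.05) at day 28, Poldip2 (0.06) and Gucy1a1 (-0.02) at day 14, and Nos3 (-0.01) for the mean of both days, where Sod3 lay at -0.00 and took either sign. At day 28 sorafenib and water libraries share replicate numbers 2, 3 and 4. Deviations of same-numbered libraries correlated at 0.105, 0.008 and 0.194, and those of the other pairs at -0.195 to 0.061. With 3 libraries per group these values cannot show whether the numbers pair the hearts, which no label says. The numbers were treated as names in the main fits. For the other contrasts, no paired analysis was possible because the groups share only number 7 at day 14, and hearts taken on different days come from different animals that no label links. Sorafenib day 28 replicate 3 limits Nos1, Nos2, Cyba and Nox4, where it held 0, 1, 7 and 9 counts.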
